A study of Mus musculus with 96 samples.

Results

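Transcript levels of 6 sodium proton exchangers were measured along the mouse nephron. The genes were Slc9a2, Slc9a3, Slc9a4, Slc9a7, Slc9a8 and Slc9a9, taken by symbol from a table of 54532 genes, so they were 6 of 54532 rows. All 6 symbols were found once, and all 6 had at least 1 TPM (a level scaled for transcript length and library total) in at least 3 mice, the filter that 33793 genes passed. Every group came from male C57BL/6 mice of 6 to 8 weeks on normal chow and water, and the labels name no transgene and no treatment. The groups were 15 microdissected structures: the glomerulus (GL), the first convoluted part of the proximal tubule (PTS1), its straight part within the medullary rays of the cortex (PTS2) and its last part in the outer stripe (PTS3), the short descending limb (DTL1), the long descending limb of the outer medulla (DTL2) and of the inner medulla (DTL3), the ascending limb's thin part (ATL) and its thick part in the medulla (MTAL) and the cortex (CTAL), then the distal convoluted (DCT) and connecting (CNT) tubules, and last the collecting duct, cut into cortical (CCD), outer medullary (OMCD) and inner medullary (IMCD) stretches. PTS2, CTAL and CCD were taken from 5 mice, ATL and OMCD from 4 and each of the other groups from 3. With up to 3 dissected pieces per mouse this made 93 samples from 53 combinations of mouse number and segment, each counted as a mouse. Pieces of 1 mouse and segment were averaged first, the mouse was the replicate, and levels are given as mean TPM ± SD over mice. Because TPM keep no read depth, the depth behind each value is unknown.

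Sodium proton exchangers move sodium into the cytosol, or into an organelle's lumen or out of it, in exchange for protons. They set intracellular and organellar pH and carry sodium and acid across epithelia. NHE3, the product of Slc9a3, is the main apical exchanger of the proximal tubule and thick ascending limb, where it takes up sodium and secretes acid so that filtered bicarbonate is reclaimed. NHE2 (Slc9a2) and NHE4 (Slc9a4) also work at the cell surface, NHE2 known as an apical and NHE4 as a basolateral exchanger of epithelial cells. NHE8 (Slc9a8) is found in the Golgi and, in proximal tubule cells, at the brush border. NHE7 (Slc9a7) resides in the trans-Golgi network and NHE9 (Slc9a9) in late recycling endosomes.

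The upstream sequences are shown for 3 members because the genes with the steepest changes between segments, Slc9a3 and Slc9a8, and the low-level gene Slc9a9 had start regions of different base composition. RefSeq (GRCm38.p6) gave a start region for 4 of the 6 members. The 250 bases before the annotated start are printed 5′ to 3′ on the gene's strand, with capitals for the GC box GGGCGG on either strand. The Slc9a3 stretch lies at chr13:74121163-74121412 (plus strand), that of Slc9a8 at chr2:167421460-167421709 (plus strand) and that of Slc9a9 at chr9:94669642-94669891 (plus strand).
Slc9a3: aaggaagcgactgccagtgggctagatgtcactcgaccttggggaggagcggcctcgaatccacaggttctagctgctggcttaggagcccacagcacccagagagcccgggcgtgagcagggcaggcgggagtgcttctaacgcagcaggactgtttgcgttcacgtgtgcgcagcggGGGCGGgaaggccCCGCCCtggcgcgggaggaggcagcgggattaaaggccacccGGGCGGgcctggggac
Slc9a8: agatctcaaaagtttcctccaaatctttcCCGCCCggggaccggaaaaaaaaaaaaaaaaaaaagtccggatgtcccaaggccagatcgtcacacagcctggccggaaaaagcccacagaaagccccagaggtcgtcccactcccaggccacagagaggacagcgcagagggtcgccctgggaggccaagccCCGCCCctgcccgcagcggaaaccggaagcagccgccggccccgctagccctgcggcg
Slc9a9: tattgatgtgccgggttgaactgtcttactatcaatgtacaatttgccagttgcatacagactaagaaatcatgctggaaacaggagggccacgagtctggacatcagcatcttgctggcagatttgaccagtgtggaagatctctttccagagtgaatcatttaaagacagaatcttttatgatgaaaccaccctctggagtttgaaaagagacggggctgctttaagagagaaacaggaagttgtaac
The Slc9a3 stretch held 19 CpG dinucleotides, 67.6% G or C and 3 GC boxes. Slc9a8 held 18 CpG, 62.0% G or C and 2 GC boxes, and Slc9a7, on the minus strand of chrX, held 19 CpG, 69.6% and 3 boxes. Slc9a9 held 3 CpG, 42.8% G or C and no GC box. Among 21262 start regions of protein-coding genes the medians were 10 CpG and 55.6% G or C, and 42.62% held a GC box. Motifs of 5 other kinds were searched on both strands, with overlaps allowed, and none of the 4 stretches held any. The core promoter letters TATAAA were in 11.63% of all regions and the GATA factor letters AGATAA in 8.81%. The HNF1 core GTTAATNAT was in 0.69%, the grainyhead core AACCGGTT in 0.14% and the cAMP response element TGACGTCA in 1.92%.

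The leading exchanger transcript changed along the nephron. The summed level of the 6 transcripts was highest in PTS2 at 584 ± 40.5 TPM (SD, n = 5) and PTS3 at 542 ± 84.8 (n = 3), both made up almost wholly of Slc9a8 (93.9% and 98.3% of the sum). It was 345 ± 26.1 in DTL2, 156 ± 36.4 in MTAL and 243 ± 22.8 in CTAL, where Slc9a3 made up 85.2%, 82.6% and 72.3%. Slc9a3 was also the larger part in PTS1, with 62.1% of a sum of 61.2 ± 12.7 TPM. From the DCT on the sum was shared more evenly. Slc9a2 led in the DCT with 52.5%, Slc9a4 in the CNT with 36.3% and in the IMCD with 54.2%, and Slc9a8 in the CCD with 27.7% and the OMCD with 43.8%. Slc9a8 also had the largest mean share in the GL (74.6%), DTL1 (48.8%), DTL3 (76.5%) and ATL (73.9%). In DTL1 its share ran from 16.8% to 74.2% over mice and that of Slc9a2 from 15.4% to 65.9%. In the ATL the Slc9a8 share ran from 44.5% to 93.9%. The lowest sums were those of the ATL (42.1 ± 8.08, n = 4), the IMCD (42.6 ± 4.91, n = 3) and the GL (42.7 ± 3.16, n = 3).

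**Figure D1:**
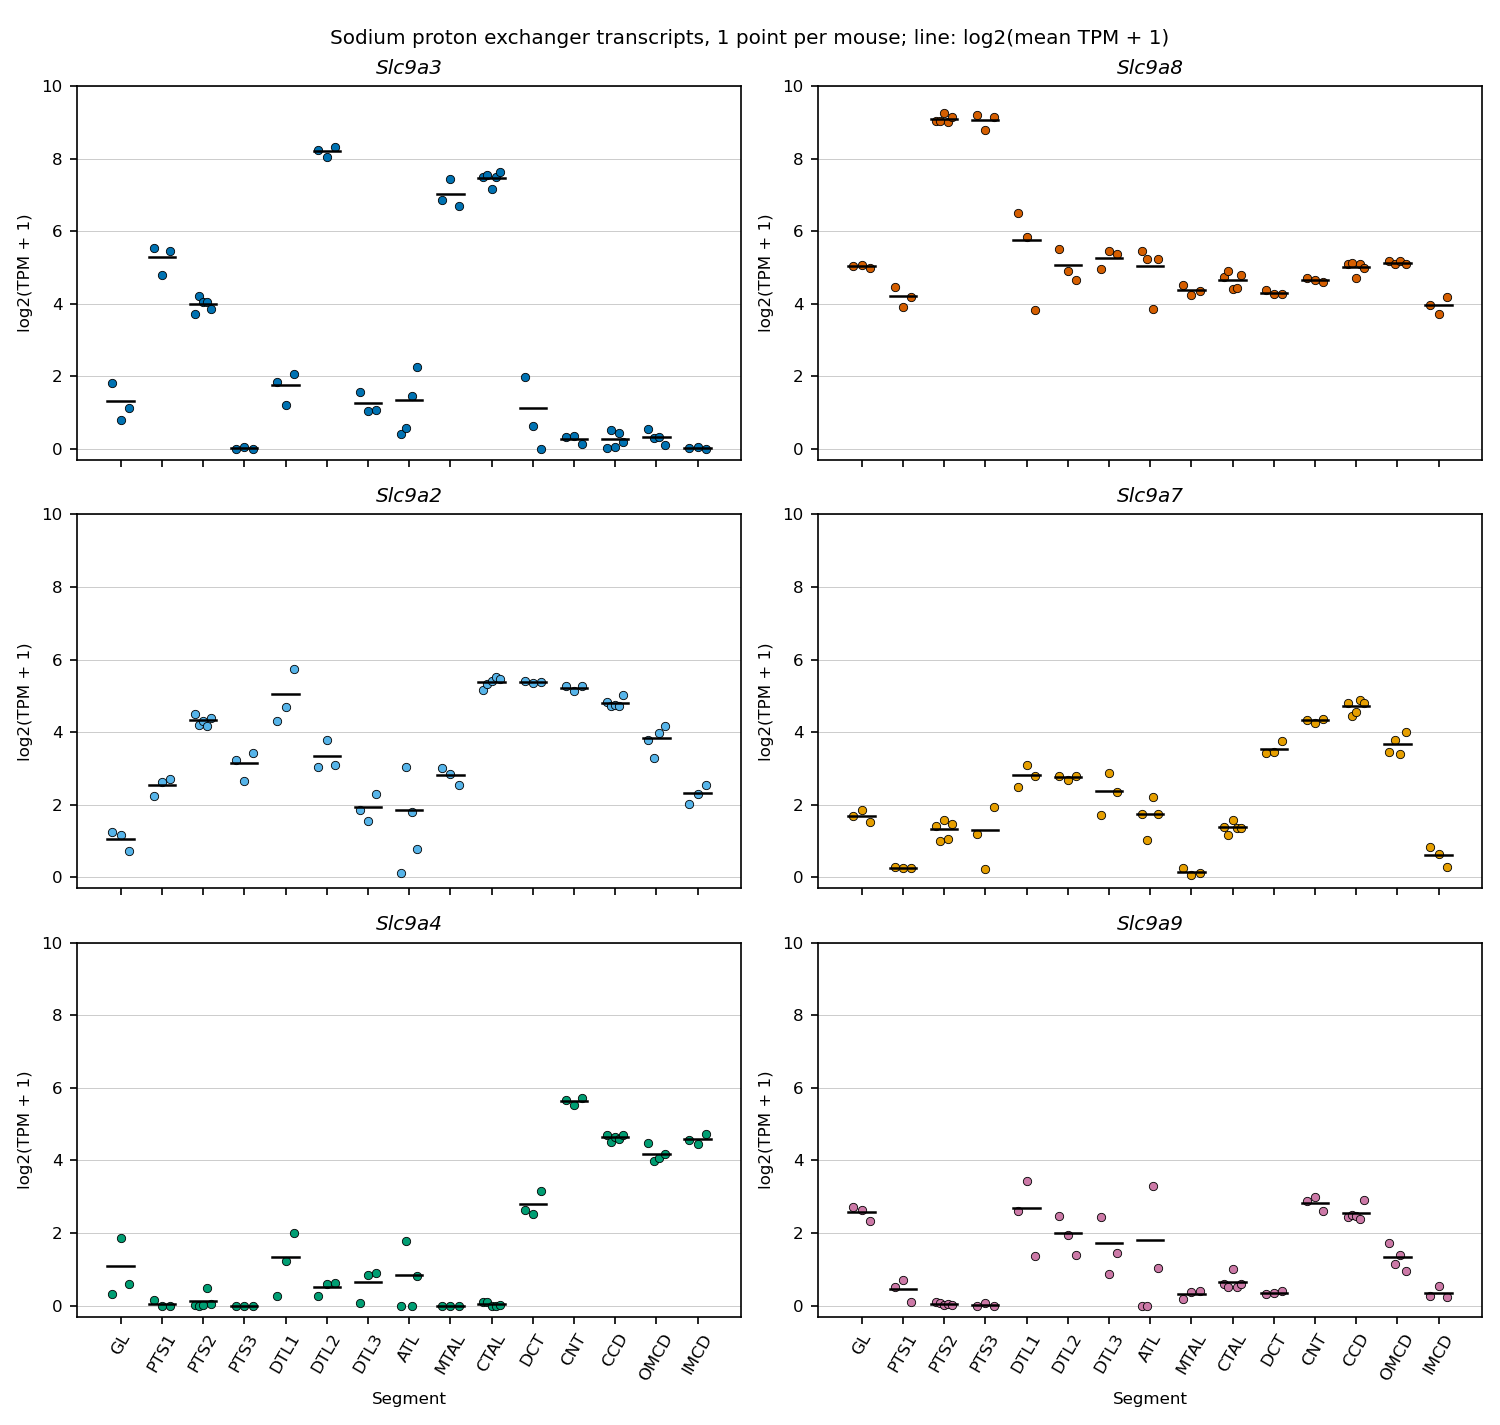
Transcript level of each exchanger (log2 of TPM plus 1, vertical) in the 15 microdissected structures (horizontal). Each point is a mouse and each line marks the group's mean TPM on the same scale; Slc9a3 is high in DTL2, MTAL and CTAL, Slc9a8 in PTS2 and PTS3, and Slc9a4 from the DCT to the IMCD.

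**Figure D2:**
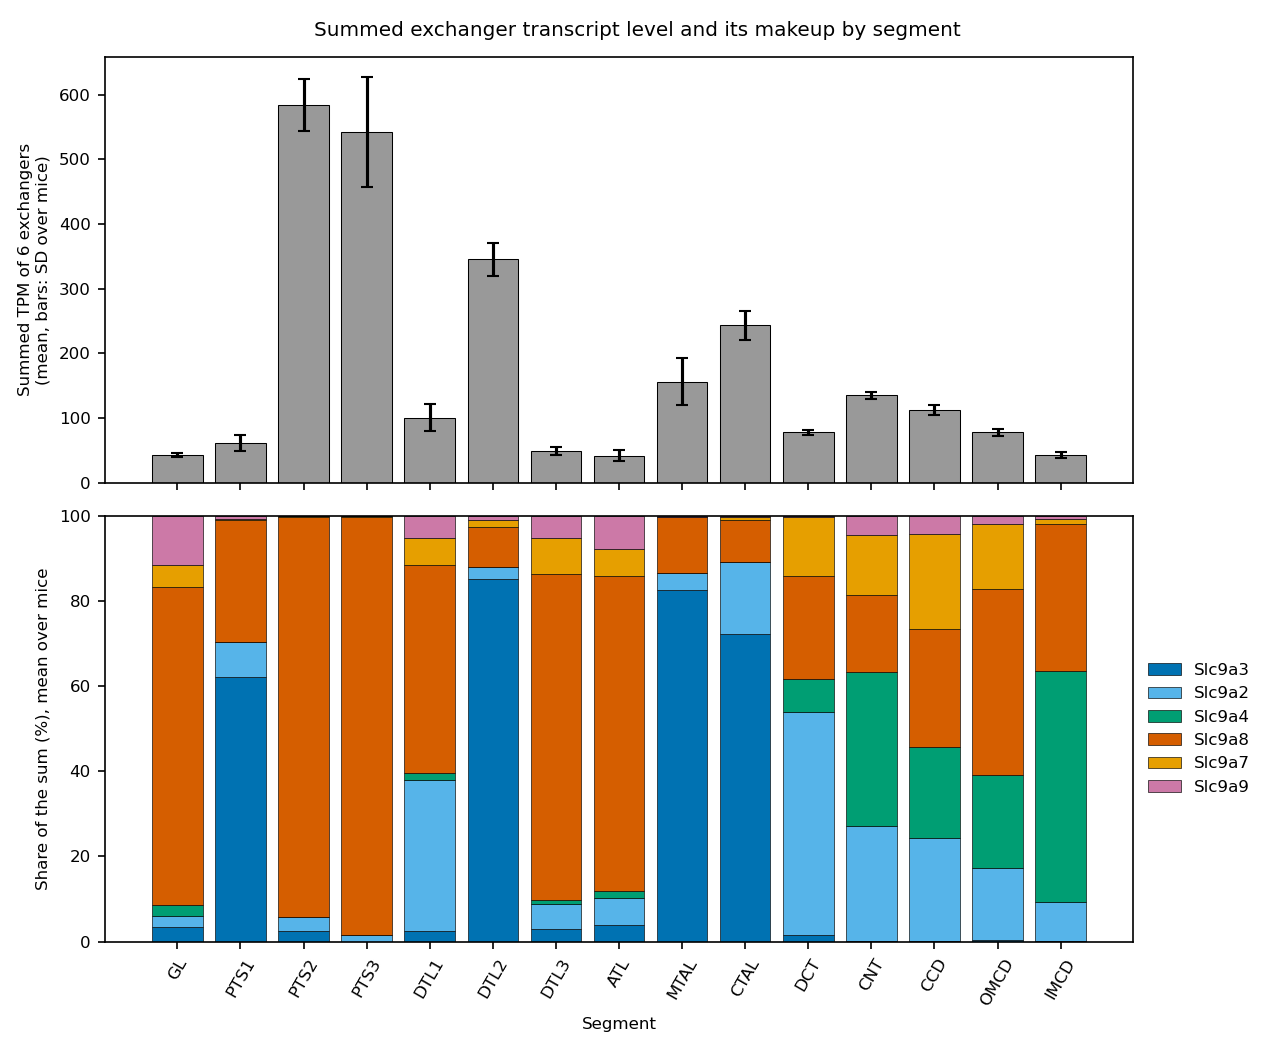
Summed TPM of the 6 exchangers (top, mean with SD over mice) and each gene's share of the sum in percent (bottom, mean over mice) for each structure. Slc9a8 fills the bars of PTS2 and PTS3 and Slc9a3 most of those of PTS1, DTL2, MTAL and CTAL.

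Facts of the whole series that touch these values were as follows. Defining markers were high in the early proximal tubule, thick limb and DCT: Slc34a1, the proximal phosphate cotransporter, had 9502 ± 307 TPM in PTS1, Slc12a1, the thick limb cotransporter of sodium, potassium and chloride, 4116 TPM in MTAL and 6135 in CTAL, and Slc12a3 5782 in the DCT. In PTS3 the proximal markers Slc34a1 (44.2 TPM), Slc22a6 (1.45) and Slc5a2 (listed at 0) were low. The proximal marker Lrp2 held 34.2 TPM there, against 107 in PTS1 and 4.42 in DTL1. The thick limb marker Cldn16 was 570 TPM in the ATL, above its 53.4 in MTAL and 482 in CTAL. The other thick limb markers went the other way. Umod was 9.36 TPM in the ATL, 21235 in MTAL and 36934.5 in CTAL, and Slc12a1 was 10.3 in the ATL. Transcripts of odorant and vomeronasal receptors, best known from sensory epithelia, were counted as a broad low-level signal. Of 1457 such genes, the median mouse had 736 at 1 TPM or more in DTL1, 526 in GL, 409 in DTL3, 270 in ATL (15 to 588), 258 in DTL2 and 82 in OMCD, against at most 19 in any mouse of the remaining groups. Endothelial markers (Pecam1, Cdh5, Emcn, Kdr) summed to 748 to 816 TPM in DTL1 and 2733 to 2770 in GL, and to 281 to 435 in DTL2. The samples are bulk tubule pieces, so fewer cells of a type and less RNA per cell cannot be told apart. Differences between groups were tested with limma on log2(TPM + 1) over all 33793 genes and called when the Benjamini-Hochberg adjusted p was under 0.05 and the difference at least 1 log2 unit. All 6 exchangers differed among the 15 groups by limma's F-test, with adjusted p from 4.04e-10 (Slc9a9) to 4.19e-32 (Slc9a3). The same test called 93.9% of all genes.

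Slc9a3, which encodes the apical exchanger of bicarbonate-reclaiming segments, was high in 3 separate stretches, the early proximal tubule, DTL2 and the thick ascending limb, and close to absent between them. The 3 DTL2 mice held 299, 265 and 320 TPM. The 5 CTAL mice held 178, 187, 143, 178 and 196 TPM, and the 3 MTAL mice 116, 172 and 102. Every DTL2 mouse was above every CTAL mouse, while CTAL and MTAL overlapped. The PTS1 mice held 45.3, 26.8 and 43.0 TPM and the PTS2 mice 12.3, 17.6, 15.7, 15.5 and 13.4, so these 2 groups did not overlap either. In PTS3 the gene was listed at 0 in 2 mice and at 0.045 TPM in the third. The other groups stayed at or under 3.75 TPM in each mouse, a value reached in the ATL.

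Slc9a3 therefore stepped down along the proximal tubule. It fell by 1.29 ± 0.30 log2 units (SE) from PTS1 to PTS2 (limma adjusted p = 0.000813) and by 3.95 ± 0.30 from PTS2 to PTS3 (adjusted p = 4.66e-14). With a pseudocount of 0.1 the fall from PTS1 to PTS2 was as large, at 1.34, but not called (adjusted p = 0.0766 by limma). From PTS3 to the long descending limb of the outer medulla Slc9a3 was 8.18 ± 0.33 log2 units higher (DTL2, adjusted p = 1.63e-24), and from DTL2 on to DTL3 lower by 6.97 ± 0.33 (adjusted p = 6.40e-21). DTL1, the short descending limb, held 2.63, 1.34 and 3.18 TPM, and DTL2 exceeded it by 6.49 ± 0.33 log2 units (adjusted p = 7.02e-20). The ascending limb was low in its thin part and high in its thick part: MTAL was 5.82 ± 0.31 above ATL (adjusted p = 3.68e-20). MTAL and CTAL differed by 0.47 (95% interval of MTAL minus CTAL -1.07 to 0.13), which was not called. The fall from CTAL to DCT was 6.64 ± 0.30 (adjusted p = 1.72e-22). The DCT mice held 2.98, 0.54 and 0 TPM. MTAL also exceeded PTS1, the classical site of the exchanger, by 1.74 ± 0.33 log2 units (adjusted p = 3.96e-05), or 3.39-fold in mean TPM.

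The high Slc9a3 level of DTL2 stood beside low levels of the markers of the other 2 stretches. In the same 3 mice the thick limb markers Umod, Slc12a1 and Cldn16 summed to 19.2 to 24.6 TPM, against 21454 to 45793 in the thick limb groups. The proximal markers Slc34a1, Lrp2, Slc5a2 and Slc22a6 summed to 1.23 to 33.7 TPM there, against 11785 to 12843 in PTS1. Aqp1, the water channel of the descending limb, held 6582 TPM in DTL2. The summed endothelial markers were lower in DTL2 than in DTL1, where Slc9a3 was low, as were Pecam1, Cdh5 and Emcn, while Kdr was higher (39.2 TPM in DTL2 and 21.1 in DTL1). DTL2 exceeded CTAL by 0.74 ± 0.30 log2 units (1.67-fold in mean TPM). In the test that asks whether a group is higher than each of the other 14, this margin had a one-sided p of 0.00859 before adjustment and 1 after it, so DTL2 was not called highest. That test called 0.0829% of all genes for DTL2.

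Slc9a2, the epithelial surface exchanger with broad reach along the distal nephron, formed a plateau from the cortical thick limb to the connecting tubule. The DCT mice held 41.3, 40.2 and 41.0 TPM, the CTAL mice 34.6, 39.2, 41.2, 44.97 and 43.0, and the CNT mice 38.0, 33.9 and 37.5. The CTAL mice overlapped with those of the DCT and of the CNT, while every DCT mouse was above every CNT mouse. Neither step between these groups was called: CTAL minus DCT was -0.01 (95% interval -0.67 to 0.64) and DCT minus CNT 0.16 (-0.57 to 0.89). The CCD followed with 27.7, 25.4, 26.1, 25.4 and 31.2 TPM. The rise into the plateau came between the 2 thick limbs, since the MTAL mice held 7.04, 6.22 and 4.83 TPM. CTAL was 2.60 ± 0.33 log2 units above MTAL (adjusted p = 7.92e-08), or 6.73-fold in mean TPM, at a step where Slc9a3 was not called.

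Down the collecting duct Slc9a2 declined. The OMCD mice held 12.9, 8.81, 14.6 and 17.0 TPM and the IMCD mice 3.09, 3.95 and 4.86, with no overlap between CCD, OMCD and IMCD. The fall from OMCD to IMCD was 1.52 ± 0.34 log2 units (adjusted p = 0.000394), which was 0.84 with quantile normalization and then not called (adjusted p = 0.0726). At this step the summed intercalated cell markers (Foxi1, Atp6v1g3, Slc4a1, Slc26a4) went from 2118 to 2866 TPM in the OMCD to 0.333 to 4.55 in the IMCD, and of the principal cell markers Aqp3 and Scnn1g were lower in the IMCD and Aqp2 was not; their part in the falls of Slc9a2, Slc9a7 and Slc9a8 was not tested. The Slc9a2 fall from CCD to OMCD was 1.01 ± 0.30 (adjusted p = 0.0102), a call lost without CCD mouse 1 or 5 or without OMCD mouse 2 (0.84 to 0.998). In the proximal tubule the middle part was the highest: PTS2 held 17.2 to 21.8 TPM, PTS1 3.73 to 5.49 and PTS3 5.35 to 9.81. PTS2 exceeded PTS1 by 1.79 ± 0.33 log2 units (adjusted p = 2.45e-05) and PTS3 by 1.22 ± 0.33 (adjusted p = 0.00580). The PTS2 to PTS3 call was lost without PTS3 mouse 2, at 1.01 with an adjusted p of 0.0835, and with quantile normalization, at 0.76. So along these 3 parts Slc9a2 was highest where Slc9a3 was intermediate. DTL1 held 18.6, 25.1 and 52.1 TPM, and 1 mouse was over 2 times as high as each of the others. The gene was at 0.09, 7.28, 2.49 and 0.73 TPM in the ATL and 0.65 to 1.40 in the GL, its lowest group.

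Slc9a4, the basolateral exchanger, was a transcript of the late distal nephron and the collecting duct. The CNT mice held 49.9, 45.6 and 51.8 TPM, above every mouse of every other group. The CCD mice held 25.2, 21.9, 24.2, 23.0 and 24.8, the OMCD mice 21.2, 14.9, 15.7 and 17.0 and the IMCD mice 22.7, 21.1 and 25.4, so the IMCD overlapped with both the CCD and the OMCD, while every CCD mouse was above every OMCD mouse. The DCT mice held 5.23, 4.75 and 7.85 TPM, below all of them. Upstream of the DCT the gene was listed at 0 in each PTS3 and MTAL mouse, at no more than 0.12 in PTS1, 0.39 in PTS2 and 0.07 in CTAL. It reached 3.02 TPM in DTL1, 2.65 in GL and 2.43 in ATL, in 1 mouse each.

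The rise of Slc9a4 came in 2 steps. The DCT was 2.62 ± 0.27 log2 units above the CTAL (adjusted p = 2.62e-10), and the CNT 2.98 ± 0.31 above the DCT (adjusted p = 2.07e-10), or 8.26-fold in mean TPM. Markers of intercalated and principal cells moved with both steps. The 4 intercalated cell markers Foxi1, Atp6v1g3, Slc4a1 and Slc26a4 summed to 1.045 to 4.25 TPM in the CTAL, 636 to 694 in the DCT and 4307 to 4987 in the CNT, and the 3 principal cell markers Aqp2, Aqp3 and Scnn1g to 5.56 to 8.68, 507 to 598 and 7904 to 11159. Their part in the Slc9a4 steps was not tested. From CNT to CCD it fell by 1.01 ± 0.27 (adjusted p = 0.0364), 2.06-fold in mean TPM. This call sat at the threshold: without any single mouse of the 2 groups the adjusted p was 0.0544 to 0.220 and the difference 0.97 to 1.06. As the margin over the next group, the CNT value had a one-sided p of 0.000553 before adjustment and 1 after, in a test that called 0.0148% of all genes for the CNT. CCD minus OMCD was 0.46 (95% interval -0.04 to 0.97) and OMCD minus IMCD -0.41 (-0.98 to 0.17), neither called.

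In the IMCD the Slc9a4 level stood beside different cell markers than in the cortex. The 4 intercalated cell markers summed to 3242 to 4436 TPM in the CCD, far above the IMCD sums given for Slc9a2. Slc9a4 was 23.8 ± 1.37 TPM in the CCD (n = 5) and 23.1 ± 2.19 in the IMCD (n = 3). Aqp2, the water channel of principal cells, held 14003 TPM in the CCD and 27393 in the IMCD, whereas Scnn1g, the gamma subunit of their sodium channel, held 1055 and 0.36 TPM. Slc9a4 and Slc9a2 are next to each other on chromosome 1 and on the same strand in RefSeq (GRCm38.p6). Their group means had a Pearson r of 0.35 over the 15 groups on the log2 scale.

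Slc9a8, the exchanger of Golgi and proximal brush border, had the highest level of any member. The PTS2 mice held 521, 524, 610, 518 and 568 TPM and the PTS3 mice 591, 439 and 569. These 2 groups overlapped and their difference was 0.04 log2 units (95% interval -0.55 to 0.64). The PTS1 mice held 21.1, 14.0 and 17.1 TPM, so the change lay between the convoluted and the straight proximal tubule. PTS2 was 4.90 ± 0.30 log2 units above PTS1 (adjusted p = 3.78e-18), or 31.5-fold in mean TPM, and PTS3 was 4.86 ± 0.33 above PTS1 (adjusted p = 2.25e-16). From PTS1 to PTS2 Slc9a8 rose while Slc9a3 fell, and from PTS2 to PTS3 Slc9a3 fell further while Slc9a8 was not called. In PTS1 Slc9a3 was 62.1% and Slc9a8 28.6% of the summed exchanger level, in PTS3 Slc9a8 was 98.3%.

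Beyond the proximal tubule Slc9a8 was present in every mouse at a more even level. PTS3 exceeded DTL1 by 3.64 ± 0.33 log2 units (adjusted p = 4.90e-13) and DTL2 by 4.04 ± 0.33 (adjusted p = 2.86e-14). Every group from DTL2 to OMCD had a mean between 18.9 TPM (DCT) and 37.8 (DTL3). DTL1 was uneven, at 89.9, 56.02 and 13.3 TPM, and its highest Slc9a8 mouse was its lowest Slc9a2 mouse. The IMCD was the lowest group, at 14.7, 12.2 and 17.3 TPM. It was 1.19 ± 0.31 log2 units below the OMCD (adjusted p = 0.00219), where the 4 mice held 35.1, 33.0, 35.1 and 33.5 TPM, a difference of 2.32-fold in mean TPM. With median ratio rescaling this difference was 0.93 and with quantile normalization 0.76, neither called. The glomerulus held 31.9, 32.6 and 30.8 TPM, which was 74.6% of its exchanger sum. For PTS2 against each other group the margin of 0.04 over PTS3 was not called, in a test that called 0.257% of all genes for PTS2.

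Slc9a7, the trans-Golgi exchanger, rose towards the cortical collecting duct. The CCD mice held 26.9, 20.9, 22.3, 28.7 and 27.1 TPM and the CNT mice 19.2, 18.2 and 19.7, below each of them, though the difference of 0.38 ± 0.23 log2 units was not called. The highest-group test gave it a one-sided p of 0.0534 before adjustment, and called 0.0207% of all genes for the CCD. The OMCD mice held 9.95, 12.9, 9.46 and 15.1 TPM and the DCT mice 9.77, 9.94 and 12.4, which overlapped. The IMCD then held 0.80, 0.57 and 0.22 TPM. The largest steps were the fall from OMCD to IMCD of 3.08 ± 0.24 log2 units (adjusted p = 1.56e-14) and the rise from CTAL to DCT of 2.17 ± 0.23 (adjusted p = 3.87e-10). Across both steps the intercalated cell marker sum and the principal cell genes Scnn1g and Aqp3 moved in the same direction. Scnn1g was 0.34 TPM in CTAL, 344 in DCT, 619.7 in OMCD and 0.36 in IMCD. The principal cell gene Aqp2 rose from CTAL to DCT but did not fall from OMCD (26774 TPM) to IMCD (27393). The markers' part in the Slc9a7 steps was not tested.

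In the upstream segments Slc9a7 was low but uneven. It was 0.11 ± 0.07 TPM in the MTAL and 1.60 ± 0.26 in the CTAL, a step of 1.23 ± 0.23 log2 units (adjusted p = 0.000196) in the same place as that of Slc9a2. A pseudocount of 5 ended the Slc9a7 call (MTAL minus CTAL -0.37, adjusted p = 0.0583 by limma). Slc9a7 was 0.21 ± 0.02 in PTS1 and 1.51 ± 0.43 in PTS2, a step of 1.04 ± 0.23 (adjusted p = 0.000460). The step fell under the limit of 1 log2 unit without PTS2 mouse 4, at 0.97. It also did so, at 0.998, without the PTS2 mouse whose column fits no sample title. With a pseudocount of 5 PTS1 minus PTS2 was -0.32 (adjusted p = 0.0659 by limma). The short and long descending limbs held 6.05 ± 1.42 (DTL1) and 5.77 ± 0.26 TPM (DTL2). Both exceeded PTS3, by 1.82 ± 0.26 and 1.76 ± 0.26 log2 units (adjusted p = 3.62e-08 and 1.33e-07). Over all genes the median difference between the same groups was 1.33 and 0.71 log2 units in the same direction, and the direction of the DTL1 difference turned with quantile normalization. The DTL2 call was lost with quantile normalization (-0.35 for PTS3 minus DTL2, adjusted p = 0.406 by limma). With a pseudocount of 5 neither difference was called, at -0.82 for PTS3 minus DTL1 and -0.78 for PTS3 minus DTL2.

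Slc9a9, the exchanger of recycling endosomes, was the lowest member, with no group above 6.15 TPM. The CNT mice held 6.40, 6.995 and 5.06 TPM, the CCD mice 4.41, 4.69, 4.60, 4.23 and 6.48 and the GL mice 5.55, 5.25 and 4.05, and these overlapped. DTL1 held 5.10, 9.84 and 1.57 TPM, and the ATL 0, 0, 8.83 and 1.06. The ATL mouse at 8.83 had 517 odorant and vomeronasal receptor genes at 1 TPM or more, and the 2 ATL mice listed at 0 had 23 and 15, but ATL mouse 6, at 1.06 TPM, had 588. In DTL1 the mouse at 1.57 TPM had 636. Over all 4 ATL mice ATL minus MTAL was 0.76 and not called, while it was called at 1.13 without mouse 2 or without mouse 3. Mice 4 and 6 alone gave 1.85 and mice 2 and 3 alone -0.32. In the DCT the 3 mice held 0.26, 0.27 and 0.34 TPM, so the CNT exceeded the DCT by 2.47 ± 0.45 log2 units (adjusted p = 5.96e-05), with 0 to 1 receptor genes at that level in the mice of both groups. The intercalated and principal cell marker sums given for Slc9a4 were also higher in the CNT. The stromal and muscle list summed to 2.38 to 6.14 TPM in the DCT and 62.3 to 79.6 in the CNT, where its Dcn was at 71.2. The list's other genes had low means in DCT and CNT: 0.835 and 0.12 (Pdgfrb), 0.18 and 0.27 (Col1a1) and 0.48 and 0.74 (Acta2). The markers' part in the Slc9a9 rise was not tested. From CCD to OMCD Slc9a9 fell by 1.24 ± 0.37 (adjusted p = 0.0105), a call lost with a pseudocount of 5 (0.60). In the IMCD it was 0.28 ± 0.16 TPM. DTL1 and DTL2 exceeded PTS3 by 2.40 ± 0.45 and 1.91 ± 0.45 log2 units (adjusted p = 7.66e-06 and 0.000375), across the steps where receptor transcripts and endothelial markers also rose. Both calls were lost with quantile normalization (-0.74 for PTS3 minus DTL1 and -0.93 for PTS3 minus DTL2) and with a pseudocount of 5 (-0.96 and -0.66). The part of that low-level signal in the Slc9a9 values was not tested.

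**Figure D3:**
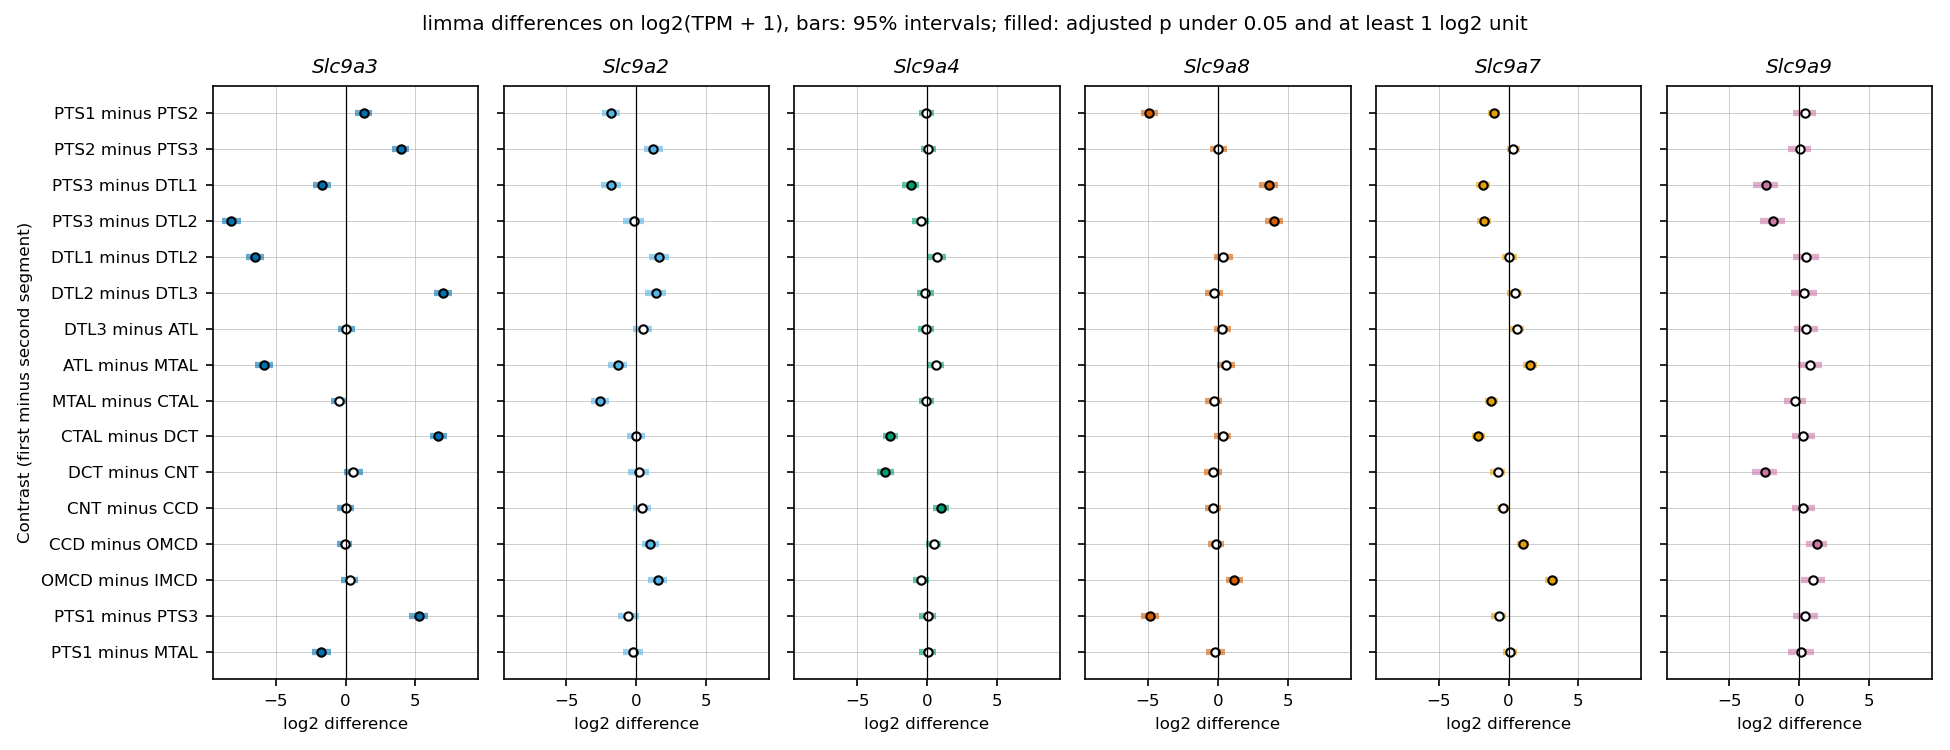
Differences between segments (log2 of TPM plus 1, first minus second segment, horizontal) for each exchanger in 16 contrasts (vertical), with 95% intervals from limma; filled points were called and open points were not. Slc9a3 has the widest steps, from -8.18 to 6.97, and Slc9a8 a step of -4.90 between PTS1 and PTS2.

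Read along the tubule, 40 of the 96 differences (6 genes in 16 contrasts) were called. Over all genes the share called ran from 1.12% (CNT to CCD) to 65.5% (PTS3 to DTL1), so this count mixes unlike backgrounds. Slc9a3 had 10, Slc9a2 9, Slc9a7 8, Slc9a8 5, Slc9a4 4 and Slc9a9 4. A pseudocount of 5, which shrinks the differences of low genes, left 24 of the 40, and the lost calls were 6 of Slc9a7, 4 of Slc9a2, 3 of Slc9a9, 2 of Slc9a4 and 1 of Slc9a3. From PTS1 to PTS2 Slc9a3 fell and Slc9a2, Slc9a7 and Slc9a8 rose (4 of 6 called, against 9.57% of all genes in either direction). From PTS2 to PTS3 Slc9a2 and Slc9a3 fell (2 of 6; 4.7% of all genes). Between PTS1 and PTS3 directly the calls were those of Slc9a3 and Slc9a8 (2 of 6; 10.1%; without PTS3 mouse 2 also Slc9a7, at -1.09), and between PTS1 and MTAL that of Slc9a3 alone (1 of 6; 15.8%).

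The steps from PTS3 into the descending limbs moved the largest shares of all genes among the 16 contrasts. From PTS3 to DTL1 all 6 members were called, 5 higher in DTL1 and Slc9a8 lower, and from PTS3 to DTL2 4 of 6. The same contrasts called 65.5% and 40% of all genes, so these counts are read against a high background. With quantile normalization none of the 5 rises into DTL1 was called in that direction: Slc9a2 was at -0.25 for PTS3 minus DTL1, Slc9a3 at -0.02, Slc9a4 at -0.04 and Slc9a9 at -0.74, and Slc9a7 turned to 0.73. The Slc9a4 call was also lost without DTL1 mouse 5, at -0.73. DTL1 and DTL2 differed in Slc9a2 and Slc9a3, in opposite directions (2 of 6; 28.2%; without DTL1 mouse 5 Slc9a8 joined them at 1.17, and without DTL1 mouse 1 Slc9a4 at 1.16), and both genes fell from DTL2 to DTL3 (2 of 6; 9.58%). The Slc9a2 fall from DTL2 to DTL3, 1.38 log2 units, was 0.83 with a pseudocount of 5 and then not called. No member was called between DTL3 and ATL (0 of 6; 14.6%), the neighbouring thin limbs of the inner medulla. With an unadjusted p under 0.05 there was 1 member, Slc9a7. Without ATL mouse 4 Slc9a9 was called, at 1.24. From ATL to MTAL Slc9a2 and Slc9a3 rose and Slc9a7 fell (3 of 6; 28.1%). The Slc9a2 call there was lost without ATL mouse 2, at -0.89, and the Slc9a7 call with quantile normalization, at 0.53, and with a pseudocount of 5, at 0.51.

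From MTAL to CCD each step called a small share of all genes, and the 2 steps down the collecting duct a larger one. From MTAL to CTAL Slc9a2 and Slc9a7 rose (2 of 6; 3.15% of all genes), from CTAL to DCT Slc9a3 fell and Slc9a4 and Slc9a7 rose (3 of 6; 4.35%), and from DCT to CNT Slc9a4 and Slc9a9 rose (2 of 6; 5.22%). From CNT to CCD the borderline fall of Slc9a4 was the only call (1 of 6; 1.12%). Slc9a2, Slc9a7 and Slc9a9 fell from CCD to OMCD (3 of 6; 12.1%). The Slc9a7 call at that step was lost without CCD mouse 4 or OMCD mouse 1 or 3, at 0.95 to 0.995. Then Slc9a2, Slc9a7 and Slc9a8 fell from OMCD to IMCD (3 of 6; 18.6%). The median difference over the 6 members was 0.74 for CCD minus OMCD and 1.09 for OMCD minus IMCD, beside -0.30 and 0.32 over all genes. In the test for a group above each other group none of the 6 members was called (0 of 6 by limma, 2 of 6 at an unadjusted p under 0.05, Slc9a3 and Slc9a4). For Slc9a2 the candidate was the DCT, where the test called 0.21% of all genes.

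The spread between mice differed by gene and group. Between 2 mice of a group the median absolute difference was 0.16 log2 units for Slc9a8, 0.18 for Slc9a4, 0.22 for Slc9a2, 0.28 for Slc9a7, 0.32 for Slc9a3 and 0.43 for Slc9a9. Between 2 pieces of 1 mouse it was 0.19 (Slc9a4) to 0.28 (Slc9a3). These medians cover pairs whose own mean reached 1 TPM, and single groups were far wider, such as Slc9a8 in DTL1 (13.3 to 89.9 TPM) and Slc9a9 in ATL (0 to 8.83). In the order of group means, 10 of 14 neighbouring pairs of groups overlapped in their mice for Slc9a3, 11 for Slc9a4 and Slc9a7, 12 for Slc9a2 and Slc9a8 and 13 for Slc9a9. The GENCODE M21 annotation places unnamed antisense, pseudogene or unclassified entries on the opposite strand over Slc9a2, Slc9a4, Slc9a7 and Slc9a9. Whether the counting used strand is not given in the sources used here. Those entries reached at most 4.27 TPM in any mouse, beside Slc9a2, and 2.48 beside Slc9a9, a size like the low Slc9a9 levels.

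Of the other genes of the family, 4 were read beside the members, and each stayed low. Slc9a5 had no group above 4.27 TPM and Slc9c1 stayed below the filter. Slc9b1 and Slc9b2, a more distant branch, had means of 7.08 and 7.01 TPM in DTL1, the group with the most receptor transcripts. Slc9b2 was 8.63 in the IMCD, its highest group, 1.52 ± 0.45 log2 units above the OMCD (adjusted p = 0.00728). The 3 of these 4 genes that passed the filter all passed the F-test, which called 93.9% of all genes.

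Genes that bind or regulate the exchangers were read at the same steps. Of 13 such genes 5 were higher in PTS2 than in PTS1 and 0 lower (9.57% of all genes were called in either direction), with a median difference (PTS1 minus PTS2) of -0.52 log2 units beside 0.15 over all genes. Pdzk1 and Pdzd3, scaffolds of the proximal brush border, held 1557 and 132 TPM in PTS1 and 1456 and 151 in PTS3, where Slc9a3 was at or near 0, and 18.0 and 1.499 TPM in DTL2, where it was highest. Slc9a3r1 (NHERF1), the scaffold that tethers NHE3, was 335 TPM in PTS3 and 43.6 in DTL2, a fall of 2.92 ± 0.18 log2 units from PTS3 to DTL2 (adjusted p = 1.27e-18). Slc9a3r2 (NHERF2) moved the other way, from 20.1 TPM in PTS3 to 125 in DTL2, but was 260 in DTL1, where Slc9a3 was low, and highest in the GL at 1467. The endothelial marker Emcn had the same order, with 23.1 TPM in PTS3, 226 in DTL2, 617 in DTL1 and 1796 in GL. Pecam1 and Cdh5 had that order too, while Kdr was higher in DTL2 (39.2 TPM) than in DTL1 (21.1). The part of endothelial cells in the Slc9a3r2 values was not tested. Tesc, tescalcin, a calcium-binding partner of exchangers, was 0.35 TPM in PTS1, 28.0 in DTL2 and 263 in MTAL. It rose by 4.44 ± 0.27 log2 units from PTS3 to DTL2 and was lower by 4.57 ± 0.27 in DTL3, the same turns as Slc9a3 (adjusted p = 1.52e-18 and 6.90e-18), and unlike Slc9a3 it was 120.2 TPM in the ATL and stayed at 104 to 188 TPM from the DCT to the OMCD. Dpp4, a brush border peptidase that associates with NHE3, was 132 TPM in DTL2, 36.2 in DTL3 and 37.5 in DTL1, and 0.23 in MTAL. Scamp2, a carrier protein of the recycling route, was 71.0 TPM in PTS1 and 200.2 in PTS2, a rise of 1.48 ± 0.12 (adjusted p = 8.62e-14) at the step where Slc9a8 rose.

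Acid-base genes of the same epithelia were read at the same steps. Car14, a membrane carbonic anhydrase, was 407 TPM in PTS1, 70.6 in PTS2, listed at 0 in each PTS3 mouse, 2044 in DTL2 and 0.39 in DTL3. It thus changed in the same direction as Slc9a3 at each of these steps, with a PTS3 minus DTL2 difference of -10.9 ± 0.42 log2 units (adjusted p = 2.89e-25). In the thick limb, where Slc9a3 was high, Car14 was 0.46 TPM (CTAL) or lower, and Car4 was 399 TPM in MTAL and 413 in CTAL. Car4 was also 471 in PTS2, where Slc9a3 was 14.9. Slc4a4, the basolateral bicarbonate exit route of the proximal tubule, fell from 590 TPM in PTS1 to 118 in PTS2 and 9.21 in PTS3 and was 3.36 in DTL2. Of the 7 acid-base genes 6 fell from PTS2 to PTS3 and none rose (4.7% of all genes were called in either direction), and their median difference was 3.24 log2 units beside 0 over all genes. Slc4a7, a sodium bicarbonate cotransporter, was 2.10 TPM in the OMCD and 72.5 in the IMCD, a rise of 4.58 ± 0.26 (adjusted p = 3.10e-19). The 6 organelle membrane genes (Lamp1, Rab7, Rab11a, Eea1, Tgoln1, Golga2) were not called between PTS1 and PTS2 (0 of 6, against 9.57% of all genes) nor between OMCD and IMCD (0 of 6, against 18.6%), counts near those shares. At an unadjusted p under 0.05 by limma there were 2 and 3 of them, the nearest to the limit being Tgoln1, a trans-Golgi protein, at -0.98 log2 units for PTS1 minus PTS2.

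**Figure D4:**
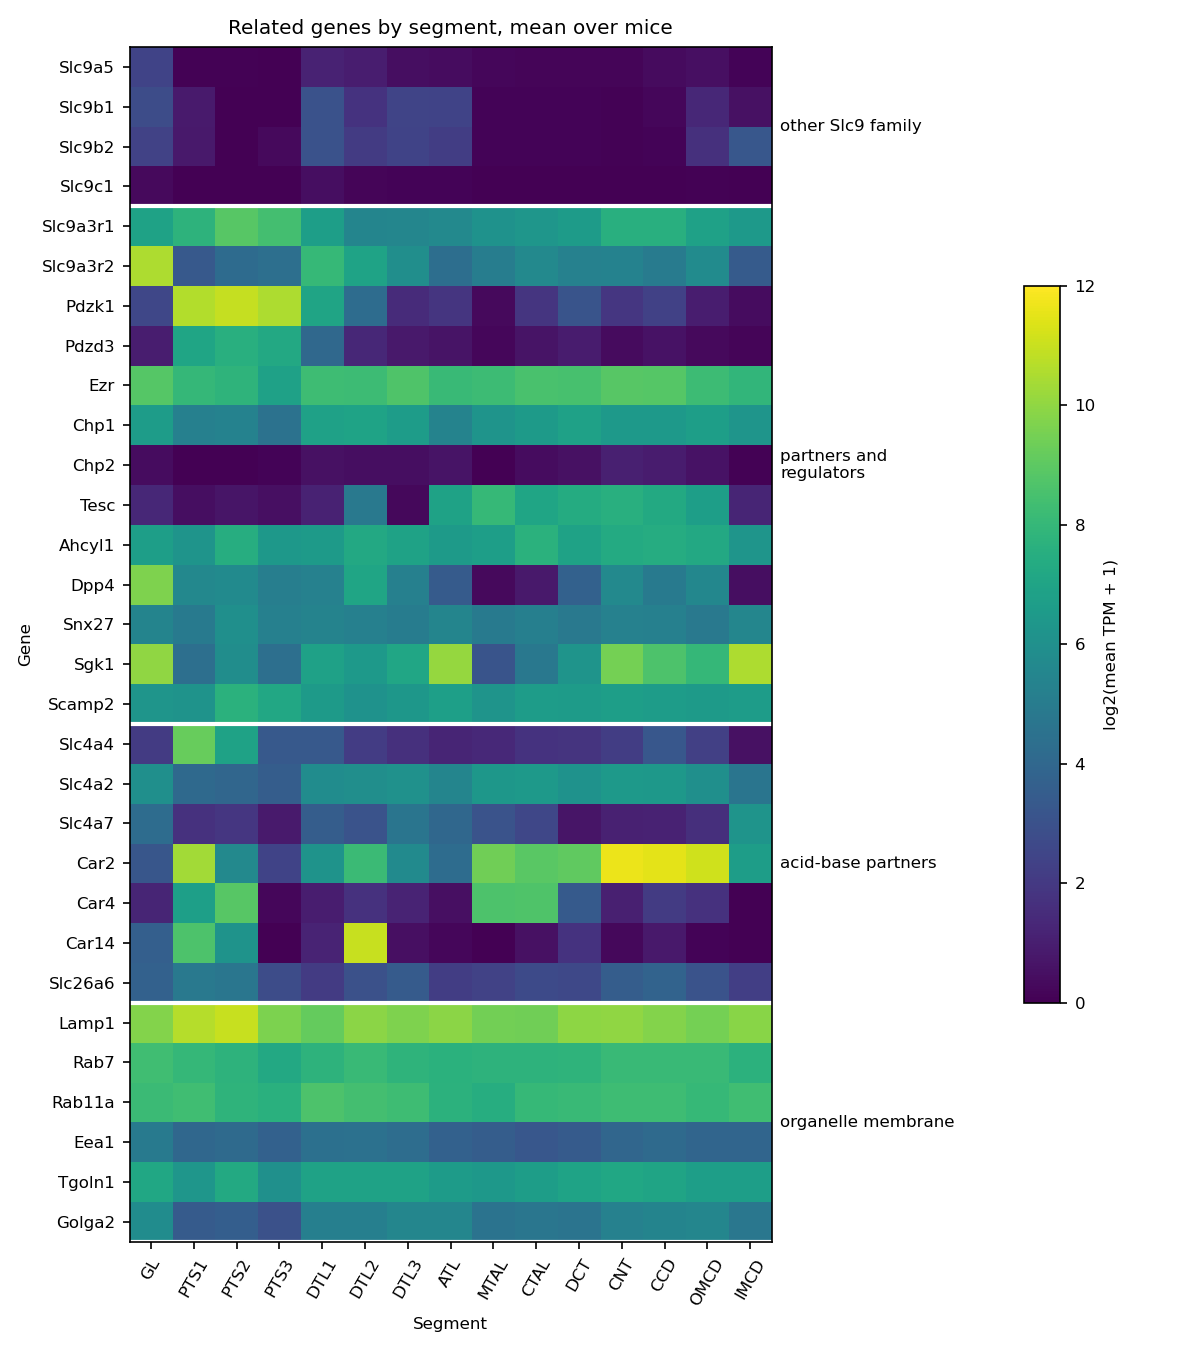
Mean level over mice (colour, log2 of mean TPM plus 1) of related genes (rows, by list) in the 15 structures (columns). Car14 and Tesc are raised in DTL2, Pdzk1 and Pdzd3 in the 3 proximal parts, and Lamp1 is high in each structure.

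The genes with the most similar profiles over the 15 group means were sought among 11682 protein-coding genes. For Slc9a8 they were Mtor, a growth-control kinase (Pearson r = 0.98), and Car5a, a mitochondrial carbonic anhydrase (0.98). Mtor was 115 TPM in both PTS2 and PTS3. For Slc9a4 they were Bmpr1b, a BMP receptor (0.97), and Guca2a, guanylin (0.96), and for Slc9a7 Shisa4 (0.94) and Slc7a4 (0.92). Slc9a9 was most like Pmp22, a myelin and epithelial membrane protein (0.96), and Mettl6 (0.93). Slc9a2 was most like Oxnad1 (0.87) and Dlec1 (0.86). Slc9a3 had the least close matches, AI854703 and Tmem86a (0.79 each), of which Tmem86a was 928 TPM in DTL2 and 638 in MTAL. Among the members themselves the closest pairs were Slc9a7 with Slc9a9 (0.68) and Slc9a7 with Slc9a4 (0.66), and the most opposed pair was Slc9a3 with Slc9a4 (-0.60). These values describe 15 points that share libraries, groups and scaling.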

How the data were processed

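Polyadenylated RNA from microdissected structures was reverse transcribed with the SMARTer V4 ultra-low input kit and made into Nextera XT libraries, per the labels' protocols. The values are TPM, computed by the authors and deposited as 1 table. STAR 2.5.4a and RSEM 1.3.0 are named in the submitters' processing notes, and the genome build, annotation and strand setting are not given in the sources used here. Columns summed to between 999998.6 and 1000190.3 TPM. Of the sample columns 0 were left aside. A PTS2 column carries the mouse number of the PTS2 title that no column matches, but another piece letter. It counts as 1 PTS2 mouse, and its number was not used. The 3 single-cell samples were not analysed here.

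Pieces of 1 mouse were averaged as log2(TPM + 1) for tests and as TPM for levels. Genes with at least 1 TPM in at least 3 mice were fitted with limma 3.58.1 in R 4.3.3 (trended eBayes, 15 groups, 1 shared spread). TPM are not counts, so no count model was used, and log2 differences understate the change of low genes. Tests were the F-test, 16 two-sided contrasts (14 between neighbours, and PTS1 against PTS3 and MTAL) and a one-sided intersection-union test for the highest group, each adjusted by the Benjamini-Hochberg method over 33793 genes. The code was tested on simulated data. Figures used matplotlib 3.10.9 with Python 3.11.15.

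The members and lists were chosen with earlier results of these data known. Named genes were the members, the lists of family, partner, acid-base, organelle and cell marker genes, and for each member the 2 protein-coding genes with the highest Pearson r over group means (at least 10 TPM in the highest group, with predicted, ribosomal and mitochondrial names passed over). Some listed genes are not reported here. Erythroid markers (Hba-a1, Hbb-bs) were highest in GL. Podocyte markers (Nphs1, Podxl) summed to 2214 to 3192 TPM there, the leukocyte list to 59.2 to 68.5 and the stromal and muscle list to 390 to 556. The labels do not say that a mouse number is 1 animal across segments (the 53 mice equal the number of number and segment combinations), so mice were taken as independent. Over 290 same-number pairs the median correlation of deviations was 0, and 19 pairs were over 0.1. The median was also 0 over 968 pairs with different numbers, so it cannot tell shared from separate animals.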

Additional observations from a re-analysis of the deposited data

Results flagged for a closer look

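Of 30 combinations of a member with a group of 4 or 5 mice, 4 held a mouse far from the others by Dixon's limit, which chance passes in about 1 of 20 groups. Slc9a9 gave 3 of the 4: 8.83 TPM in ATL mouse 4, 1.005 in CTAL mouse 3 and 6.48 in CCD mouse 5. Slc9a4 gave the fourth, with 0.39 TPM in PTS2 mouse 5, where the other PTS2 mice held at most 0.03.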

How the results depend on the processing

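All 6 members passed the F-test under each of the 13 other settings and the 53 fits that left out a mouse (6 to 6), and none was called highest in 1 group (0 to 0). The fit as reported called 40 of 96 contrasts, a pseudocount of 5 called 24, quantile normalization 32 and the fits without a mouse 38 to 41. Such totals can include contrasts that the fit as reported did not call, so a total can exceed the calls kept. There were at least 10 such new calls over the 13 other settings and at least 6 over the fits without a mouse. With the mouse number as a replicate block 38 were called. The block changed 2 calls, Slc9a2 between CCD and OMCD (0.94) and Slc9a7 between PTS1 and PTS2 (-0.89). The labels do not say that a number is 1 animal across segments, and 26 of 51 mice correlated best with their own number. Whether that count exceeds chance was not tested. Of the 40 calls, 20 held under every setting and 20 were lost under at least 1, and 1 changed sign: Slc9a7 for PTS3 minus DTL1 was 0.73 with quantile normalization. Slc9a3 for PTS1 minus PTS2 was lost with a pseudocount of 0.1 (1.34, adjusted p = 0.0766 by limma), and Slc9a4 for PTS3 minus DTL1 without DTL1 mouse 5 (-0.73). The cause was not tested in any of these. TPM hold no depth, so precision at low levels is unknown.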
